A study of Bos taurus with 27 samples.

Results

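The ATP-binding cassette (ABC) genes were followed in the rumen epithelium (RE) of fattening cattle. All non-control probes of the microarray whose gene name begins with ABCA, ABCB, ABCC, ABCD, ABCE, ABCF or ABCG and a digit were taken, which gave 38 of 15008 probes. Each probe stood for 1 gene, with 9 in ABCA, 7 in ABCB, 9 in ABCC, 4 in ABCD, 1 in ABCE, 3 in ABCF and 5 in ABCG. The names are those of the array design, and 24 of the 38 were matched through their transcript accession to current RefSeq symbols, with 0 differences.

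The RE of the same 9 castrated, rumen-fistulated Japanese Black cattle was biopsied by punch from the ventral sac at 3 stages, when the animals were aged 14 months (early), 21 months (middle) and 29 months (late). At all 3 stages the cattle ate concentrate with rice straw, and there was no separate control group, so age and feeding stage cannot be told apart. RNA labeled with cyanine 3 was hybridized to 1-color arrays of 60-base oligonucleotides, 9 per stage and 27 in all. The first period compared the middle with the early stage, the second period the late with the middle stage, and the total period the late with the early stage.

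A level is the log2 processed intensity of a probe minus the median of its array, and 3 levels in a row at a stage are those of the lowest, median and highest animal unless they are called means. A probe is a differentially expressed gene (DEG) where limma, with the animal as a block and Benjamini-Hochberg adjustment over 15008 probes, gave an adjusted *P* below 0.05. The SE pools the spread of the 3 stages, so a wide middle stage also widens the SE of the total period. With only the 2 stages compared in the fit, the median total-period SE over all probes was 0.125 against 0.188. That fit called 4760 probes in the total period against 2999. The first and the second period share the middle-stage arrays, so their values are not independent and are given side by side. Middle-stage arrays were dim, with median processed signals of 8.22 to 28.7 against 35.2 to 48.6 for early-stage and 32.2 to 47.0 for late-stage arrays. Across all probes the log2 fold change had a median of 0.33, −0.28 and 0.03 in the first, second and total periods, and when restricted to probes well above background in each of the 27 biopsies it was 0.08, 0.09 and 0.13. Most slides held 1 stage, and only the early-stage array of animal 9 shared a slide (slide 2) with middle-stage arrays, those of cattle 1 to 7. First-period values within slide 2 therefore set 1 early biopsy against 7 of other animals, and are given as values with no test. Of 15 probes for markers of stratified epithelium, 13, 12 and 13 were well above background on all 9 arrays of the early, middle and late stage. In a bulk biopsy, fewer cells of a type and less RNA per cell cannot be told apart.

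ABC proteins bind and hydrolyze ATP on a pair of nucleotide-binding domains. Most use that energy to carry substrates across membranes. Drugs and organic anions leave the cell through ABCB1, most of the ABCC subfamily and ABCG2. Lipids and sterols are moved by the ABCA subfamily, ABCG1, ABCG5 and ABCG8. Several ABCB members carry heme precursors and iron-sulfur intermediates through mitochondrial membranes, and most of the ABCD subfamily carries fatty acyl-CoA into peroxisomes. ABCE1 and the ABCF proteins have the ATP-binding domains without a membrane part, and members such as ABCE1 and ABCF1 work at the ribosome.

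The following 60-base probe sequences, read from the scanner files, are shown because they carry the results of 5 members that changed at least 2-fold, and of ABCA1, the cholesterol efflux pump, which was not well above background on any array. They are given 5′ to 3′ with the position of the probe in the bovine genome build UMD_3.1 and the strand of that position in the files. Exon and UTR annotation of this build was not used here.
ABCC4, chr12:32215428-32215487, + strand: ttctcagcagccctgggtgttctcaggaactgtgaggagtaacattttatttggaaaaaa
ABCC3, chr19:36684694-36684753, − strand: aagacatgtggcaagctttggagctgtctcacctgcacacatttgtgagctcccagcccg
ABCB6, chr2:107886695-107886974, − strand: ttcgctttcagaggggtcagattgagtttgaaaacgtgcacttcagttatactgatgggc
ABCB8, chr4:114410874-114411646, + strand: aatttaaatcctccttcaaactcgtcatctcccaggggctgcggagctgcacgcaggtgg
ABCF3, chr1:83577646-83577705, − strand: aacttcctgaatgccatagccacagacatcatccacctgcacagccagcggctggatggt
ABCA1, chr8:96325294-96325688, − strand: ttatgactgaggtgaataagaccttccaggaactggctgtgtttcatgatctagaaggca
The positions of the ABCB6, ABCB8 and ABCA1 probes span more than 60 bases, as do those of 11 members in all, so these probes bind sequence that is split in the genome. The other 2 members with a change of at least 2-fold on measured probes lie at chr3:49136561-49136620 on the − strand (ABCD3) and at chr28:492442-492501 on the − strand (ABCB10).

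Detection is given beside the shares of all probes, and the differences between these shares were not tested. Well above background on all 27 arrays were 14 members, or 36.8% against 45.3% of all probes, among them ABCA3, ABCB10, ABCC1, ABCC3, ABCC4, ABCC10, ABCD3, ABCD4, ABCE1, ABCF1, ABCF2 and ABCG1. A further 7 were so on all 9 arrays of the early and the late stage and on some middle-stage arrays, namely ABCB1 and ABCB6 (8 middle-stage arrays each), ABCA6 and ABCA9 (7 each), ABCG4 (6), ABCB8 (4) and ABCF3 (3). These 21 members are called the measured members below. On some arrays, but on all 9 of no stage, were ABCA4 (22 of 27 arrays), ABCG2 (10), ABCC5 (9), ABCC2 (7), ABCB9 (2) and ABCA12 (1). Not well above background on any array were 11 members, or 28.9% against 13.6% of all probes. They were the lipid transporters ABCA1, ABCA5, ABCA7, ABCA13, ABCG5 and ABCG8, the bile salt pump ABCB11, the sulfonylurea receptors ABCC8 and ABCC9, ABCC11 and the peroxisomal ABCD2. ABCG5 and ABCG8, which pair to form the intestinal sterol pump, were thus both without a measured level in the RE.

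**Figure D1:**
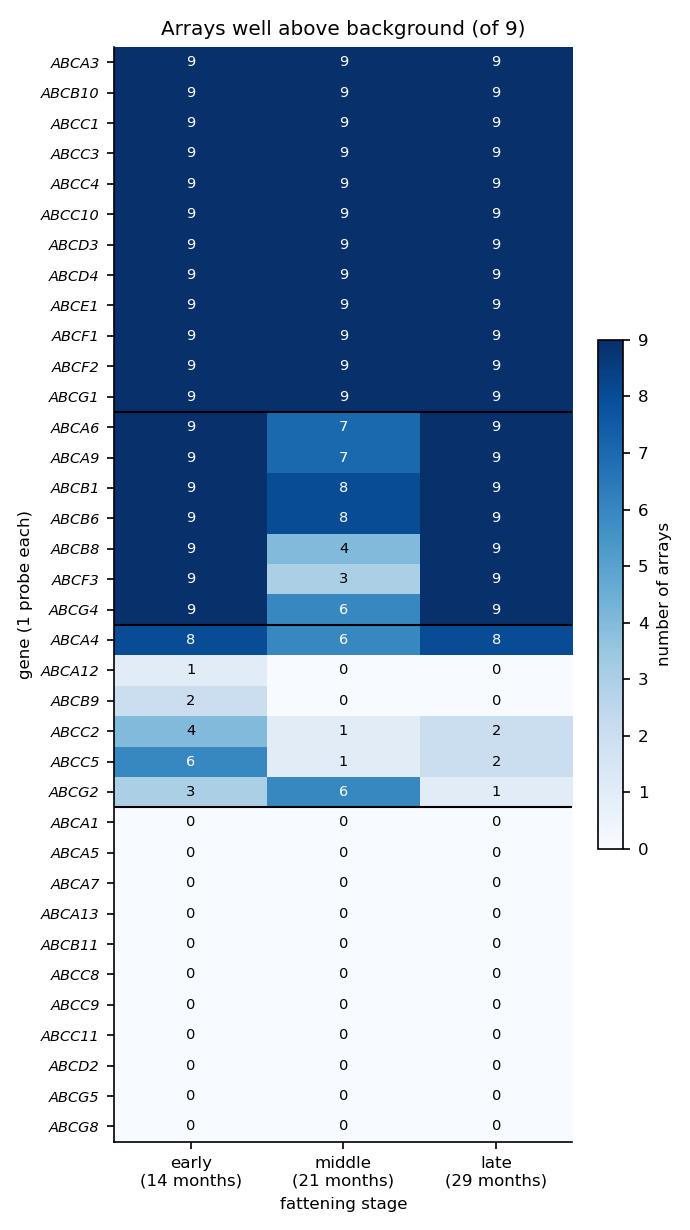
Number of arrays, of 9 per stage, on which each of 36 ABC probes was well above background, with a row for each gene, a column for each stage and black lines between the 4 detection classes. The 12 genes at the top reach 9 at every stage, the next 7 drop to between 3 and 8 at the middle stage, and the 11 at the bottom are at 0 throughout.

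During the first period 22 ABC probes were upregulated and 8 downregulated, where 45.3% and 21.2% of all probes were called in those directions. During the second period 8 were upregulated and 23 downregulated, against 26.7% and 44.8% of all probes. Over the total period 1 was upregulated and 2 were downregulated, against 11.0% and 9.01%. A change of at least 2-fold with an adjusted *P* below 0.05 was found for 16 members in the first period (31.4% of all probes), 19 in the second (39.1%) and 0 in the total period (4.16%). The median log2 fold change over the 38 members was 0.52, −0.71 and −0.05 in the 3 comparisons.

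Most of the first-period rises came from probes that were not measured members. Among the 21 measured members, 8 were upregulated, 8 downregulated and 5 not called in each of the first and second periods, and 6 changed at least 2-fold in each. The median log2 fold change of the 21 members was 0.10 and 0.06. Of the 14 members measured on all 27 arrays, 7 were upregulated and 4 downregulated in the first period, against 34.9% and 26.9% of all probes so measured, and 4 and 7 in the second, against 37.4% and 30.7%. All 11 members that were not well above background on any array were called higher in the first period and 10 of them lower in the second. The shares of all probes called in those directions were 45.3% and 44.8%. Shares among the 2042 probes of the array that were likewise not well above background on any array are not given. Whether these 11 differ from those probes was thus not tested. In linear intensity units, the median processed signal of the 11 ABC probes was 1.49 (early), 1.48 (middle) and 1.34 (late), while the median over arrays of the array median went from 39.3 to 16.7 and to 39.6. No fold change is given for these 11 because they were not well above background at either stage. Under quantile normalization 9 of the 38 were higher and 9 lower in the first period and 9 higher and 12 lower in the second. Of all 15008 probes, 3677 were then higher and 3492 lower in the first period, and 4060 and 3860 in the second.

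**Figure D2:**
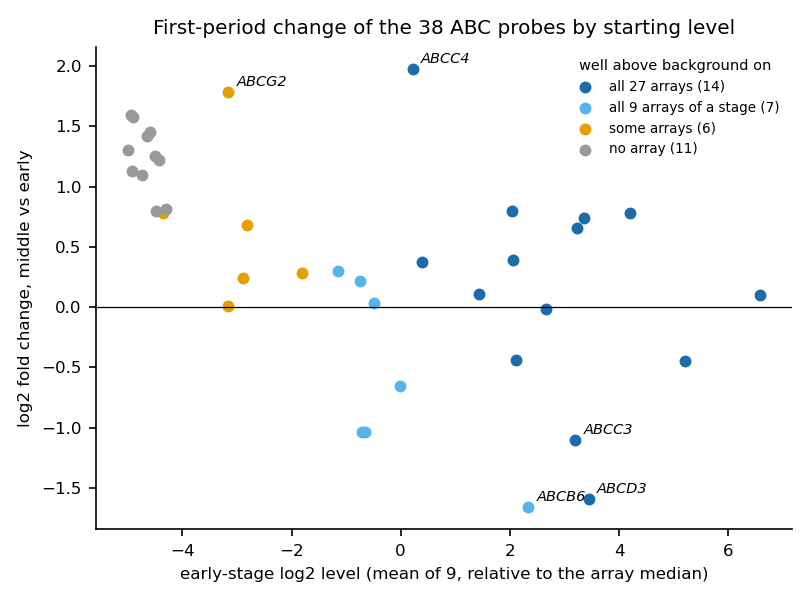
Log2 fold change from the early to the middle stage (vertical) against the mean early-stage log2 level (horizontal) for the 38 ABC probes, colored by the arrays on which they were well above background. The 11 gray probes lie to the left, all above 0, while the measured members lie on both sides of 0 between −1.66 for ABCB6 and 1.98 for ABCC4.

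The relation between starting level and first-period change was not particular to these genes. Spearman's rho was −0.65 over the 38 members and −0.59 over all 15008 probes, as descriptions across probes that share the same arrays and scaling. Over the 14 members measured on all arrays it was −0.38.

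ABCC4, an exporter of cyclic nucleotides, prostaglandins and other organic anions, moved most among the measured members in the first and second periods. Its log2 level was −1.20 in the lowest, 0.58 in the median and 0.92 in the highest animal at the early stage, 0.45, 2.63 and 4.16 at the middle stage, and −2.50, −0.02 and 0.86 at the late stage. The stages overlapped across animals, but within animals the level rose in 9 of 9 cattle and then fell in 9 of 9. It was upregulated 3.94-fold in the first period (log2 fold change 1.98 ± 0.21, SE, n = 9; limma adjusted *P* = 5.77e-07) and downregulated 6.79-fold in the second (−2.76 ± 0.21, adjusted *P* = 4.16e-09). Over the total period it was downregulated 1.72-fold (−0.79 ± 0.21, adjusted *P* = 0.0132), lower in 8 of 9 cattle. ABCC4 was also the 1 measured member of 21 whose median processed signal was higher at the middle than at the early stage (118 against 67.0, and 36.2 at the late stage). Within slide 2 its first-period log2 fold change was 1.36, where the middle-stage arrays include those of cattle 1, 2 and 3, the lowest for this gene, so that animal and stage cannot be told apart in this value. A random block for the slide gave 2.13 (limma adjusted *P* = 0.00015). The total-period change was not a DEG with that block (−0.60, limma adjusted *P* = 0.58), without the animal block (−0.79, 0.30) or after normexp background correction (−0.22, 0.56). The random slide block called 248 of all 15008 probes over the total period, against 2999 in the main fit. Its median total-period SE over all probes was 0.327 against 0.188.

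The level of ABCC4 also differed among the cattle. Cattle 1, 2 and 3 had the 3 lowest levels at each of the 3 stages. At the early stage these 3 were at −0.40, −0.85 and −1.20, and the other 6 cattle at 0.56 to 0.92. At the middle stage they were at 0.47, 0.45 and 0.86 against 2.16 to 4.16, and at the late stage at −1.65, −1.86 and −2.50 against −0.16 to 0.86. The 2 sets of cattle are named after their levels, so no test was made between them. No other ABC probe had the same 3 lowest cattle at each stage. In a test chosen after the data had been seen, limma's moderated F statistic for the 9 animals with the stages in the model was 16.1 for ABCC4 (adjusted *P* = 0.000257). By the same test 2 of the 38 members differed among cattle, where 1.87% of all probes and 2.32% of those measured on all 27 arrays did, the second being ABCC1 (F = 7.24, limma adjusted *P* = 0.0184). The SD of the 9 animal means, after each stage was centered, was 1.04 for ABCC4, above that of 99.5% of all probes and 99.8% of those measured on all 27 arrays. For ABCC1 that SD was 0.43. After normexp background correction the limma adjusted *P* of ABCC4 for the animals was 0.227 and 1 member was called, and ABCC1 was lost when animal 1, 6 or 8 was left out. Cattle 1 to 8 lay together on slide 1 at the early and on slide 4 at the late stage, where cattle 1 to 3 thus shared a slide with 5 of the other cattle.

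**Figure D3:**
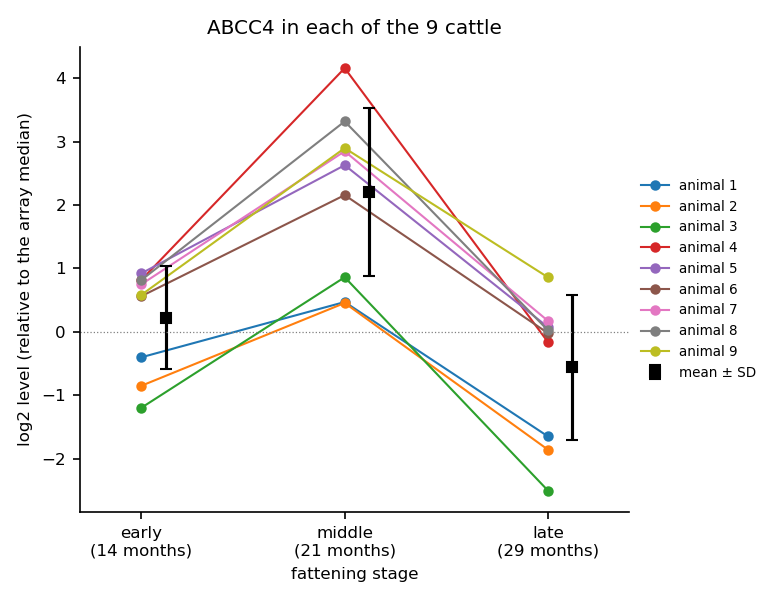
Log2 level of ABCC4, relative to the array median, at the 3 fattening stages, with 1 colored line for each of the 9 cattle and black squares with bars for the mean ± SD. Every line rises to the middle stage and falls to the late stage, and the lines of cattle 1, 2 and 3 run below the other 6 at every stage.

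ABCC3, which exports glucuronides and bile salts, moved against ABCC4 in both periods. Its log2 level was 2.76, 3.22 and 3.39 (lowest, median and highest animal) at the early stage, 1.37, 2.06 and 2.69 at the middle stage, and 2.34, 2.99 and 3.08 at the late stage. The early and middle stages did not overlap, which was so in the lower direction for 6.74% of all probes, whereas the middle and late stages did. ABCC3 was downregulated 2.15-fold in the first period (−1.11 ± 0.13, SE, n = 9; limma adjusted *P* = 2.27e-06), lower in 9 of 9 cattle. It was upregulated 1.66-fold in the second (0.73 ± 0.13, limma adjusted *P* = 8.76e-05), higher in 9 of 9. The total-period change was −0.37 ± 0.13 (limma adjusted *P* = 0.0587), lower in 8 of 9 cattle. That last value passed the threshold under several other settings, among them 75th percentile scaling (−0.49, limma adjusted *P* = 0.00559), but not under a random slide block (−0.39, 0.58). Within slide 2 the first-period value was −0.67.

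The other ABCC members changed less or were not measured throughout. ABCC1, which exports glutathione conjugates, was upregulated 1.31-fold in the first period (log2 fold change 0.39, limma adjusted *P* = 0.013) and downregulated 1.41-fold in the second (−0.49, 0.0022). ABCC10 was not a DEG in any comparison, with mean levels of 1.44, 1.55 and 1.60. Both ABCC2, the canalicular conjugate pump, and ABCC5, a cyclic nucleotide and anion exporter, were well above background on more early-stage arrays (4 and 6) than middle-stage (1 each) or late-stage arrays (2 each). ABCC5 was called lower over the total period (limma adjusted *P* = 0.048), with 2 late-stage arrays well above background.

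Of the ABCB members that work in or on mitochondria, ABCB6 and ABCB8 were lower and ABCB10 higher at the middle stage. ABCB6, a porphyrin transporter, stood at log2 levels of 1.95, 2.36 and 2.68 (lowest, median and highest animal) at the early stage, −1.13, 0.92 and 1.44 at the middle stage, and 1.85, 2.13 and 2.31 at the late stage. The middle stage lay wholly below the other stages, as 10.2% of all probes did against the late stage. ABCB6 was downregulated 3.16-fold in the first period (−1.66 ± 0.20, SE, n = 9; limma adjusted *P* = 2.15e-06) and upregulated 2.71-fold in the second (1.44 ± 0.20, adjusted *P* = 5.03e-06), in 9 of 9 cattle each time. Its total-period change was −0.22 (95% confidence interval −0.64 to 0.20), lower in 8 of 9 cattle. That interval rests on a spread pooled over the stages, and the SD of the levels was 0.20, 0.73 and 0.12 (early, middle, late). Within slide 2 the first-period value was −1.35.

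ABCB10, a carrier of the inner mitochondrial membrane linked to heme synthesis, went the other way. Its log2 level was 3.68, 4.18 and 4.67 at the early stage, 4.37, 4.95 and 5.79 at the middle stage, and 3.70, 3.85 and 4.15 at the late stage. It was upregulated 1.72-fold in the first period (0.78 ± 0.13, SE, n = 9; limma adjusted *P* = 6.08e-05) and downregulated 2.14-fold in the second (−1.10 ± 0.13, adjusted *P* = 9.47e-07), in 9 of 9 cattle each time. The middle-stage levels lay wholly above the late-stage levels, as for 10.4% of all probes, and overlapped the early ones. The total-period change of −0.31 (limma adjusted *P* = 0.103) became a DEG under other scalings, such as the 75th percentile (−0.43, 0.0363). Within slide 2 the first-period value was 0.96.

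ABCB8, another inner-membrane protein of mitochondria, was dim at the middle stage. Its log2 level was −1.06, −0.67 and −0.23 at the early stage, −2.79, −1.68 and −0.52 at the middle stage, where 4 arrays were well above background, and −0.90, −0.32 and 0.08 at the late stage. The middle-stage levels were mostly below the others but overlapped them. ABCB8 was downregulated 2.05-fold in the first period (−1.03 ± 0.22, SE, n = 9; limma adjusted *P* = 0.000441) and upregulated 2.62-fold in the second (1.39 ± 0.22, adjusted *P* = 1.76e-05), in 8 of 9 cattle each time. After normexp background correction, whose offset compresses dim signals by construction, these values were −0.17 and 0.26. Within slide 2 the first-period value was −0.99.

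ABCB1, the multidrug efflux pump P-glycoprotein, was not a DEG in any comparison, with mean log2 levels of −0.49, −0.46 and −0.66 at the 3 stages. The 95% confidence interval of its first-period log2 fold change was −0.28 to 0.35, so a change of 2-fold lay outside it.

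In the ABCD subfamily, ABCD3 fell at the middle stage while ABCD4 rose. ABCD3, which brings branched-chain and bile acid precursors into peroxisomes, stood at log2 levels of 3.05, 3.42 and 3.82 in the early biopsies, −0.19, 2.24 and 2.64 at the middle stage, and 3.66, 3.93 and 4.19 at the late stage. The middle stage lay wholly below the other stages. ABCD3 was downregulated 3.01-fold in the first period (−1.59 ± 0.25, SE, n = 9; limma adjusted *P* = 2.84e-05) and upregulated 4.35-fold in the second (2.12 ± 0.25, adjusted *P* = 6.64e-07), in 9 of 9 cattle each time. Cattle 4 and 8 had the lowest middle-stage levels, −0.19 and 0.88, and their arrays were among the 3 with the lowest share of probes well above background. The 3 arrays were those of cattle 4, 8 and 9, and those of cattle 8 and 9 alone lay on slide 3 and were scanned on scan day 2. Leaving out the 3 therefore also left out that slide and scan day. Without those 3 arrays, a setting chosen after the data had been seen, the values were −1.11 and 1.64. The total-period change was 0.53 ± 0.25 (limma adjusted *P* = 0.144), although 9 of 9 cattle were higher in the late biopsy. That SE pools the stages, whose levels had SDs of 0.23, 0.92 and 0.17 (early, middle, late). The total-period change was a DEG when those 3 arrays were left out (0.53, limma adjusted *P* = 0.00155). Within slide 2 the first-period value was −1.44.

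ABCD4, which takes part in cobalamin release from lysosomes, stood at log2 levels of 3.18, 3.39 and 3.54 in the early biopsies, 3.64, 4.15 and 4.51 at the middle stage, and 3.29, 3.43 and 3.62 at the late stage. The middle-stage levels lay wholly above the early and the late ones, which in that direction was so for 6.21% of all probes in the first period. The log2 fold changes were 0.74 ± 0.11 and −0.67 ± 0.11 in the first and second periods (SE, n = 9; limma adjusted *P* = 1.23e-05 and 1.85e-05). On the scale of the processed signal the median was lower at the middle than at the early stage, 318 against 410, so the rise is one relative to the array median. Within slide 2 the first-period value was 0.63.

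**Figure D4:**
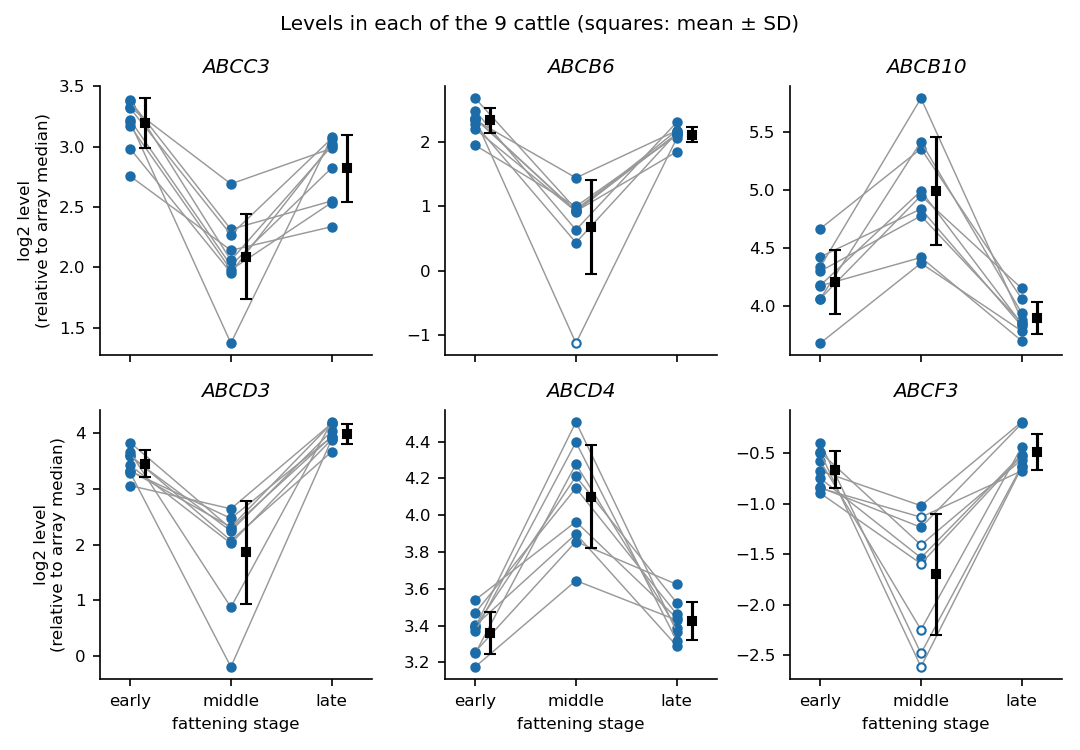
Log2 levels relative to the array median (vertical, a separate scale in each panel) at the 3 fattening stages (horizontal) for 6 ABC genes, with gray lines joining the 3 biopsies of an animal and black squares with bars for the mean ± SD of 9 cattle. Points are filled where the probe was well above background, and the open points, all at the middle stage, are ABCB6 in animal 4 (−1.13) and ABCF3 in 6 animals. ABCC3, ABCB6, ABCD3 and ABCF3 dip at the middle stage, and ABCB10 and ABCD4 peak there.

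Lipid transporters of the ABCA and ABCG subfamilies with a measured level were few. ABCA3, known for loading lipid into the lamellar bodies of lung cells, was upregulated 1.58-fold in the first period (log2 fold change 0.66, limma adjusted *P* = 0.000415) and downregulated 1.69-fold in the second (−0.76, 7.7e-05), in 9 of 9 cattle each time. Within slide 2 its first-period value was 0.05. ABCG1, which moves cholesterol toward high-density lipoprotein, had values of 0.38 (limma adjusted *P* = 0.0399) and −0.56 (0.00363). ABCA9 had values of 0.30 (limma adjusted *P* = 0.022) and −0.37 (0.00538). The first-period calls of ABCG1 and ABCA9 were lost when single animals were left out (6 of 9 cattle for ABCG1, 3 of 9 for ABCA9). ABCA6, in contrast, was downregulated 1.58-fold in the first period (−0.66, limma adjusted *P* = 0.0131) and upregulated 1.58-fold in the second (0.66, 0.0116). Neither was a DEG without the animal block (−0.66, 0.0795 and 0.66, 0.0745) or without the 3 dimmest middle-stage arrays (−0.45, 0.13 and 0.45, 0.12), and within slide 2 the first-period value was −1.93.

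ABCG4, a sterol transporter best known from brain, was not a DEG in the first or second period but was upregulated 1.34-fold over the total period (0.43 ± 0.13, SE, n = 9; limma adjusted *P* = 0.0288). On the log2 scale its levels were −1.29, −0.78 and −0.37 (early), −1.09, −0.39 and −0.21 (middle) and −0.76, −0.25 and −0.05 (late), with 8 of 9 cattle higher in the late than in the early biopsy. The call was lost when any of 6 of the 9 cattle was left out, with limma adjusted *P* up to 0.084, and under 75th percentile scaling (0.31, 0.0813). ABCG2, an apical efflux pump for drugs and urate, was well above background on 3 early-stage, 6 middle-stage and 1 late-stage arrays. Its log2 level was −4.21, −2.94 and −2.35 at the early stage, −2.54, −1.58 and 0.69 at the middle stage, and −4.21, −3.31 and −2.90 at the late stage. ABCG2 was thus called higher at the middle stage than at the early one (limma adjusted *P* = 0.000128) and lower at the late stage (2.68e-05), with at least 3 of the 9 arrays of every stage not well above background.

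Of the 4 members without a membrane part, ABCE1, ABCF2 and ABCF3 were lower at the middle stage. ABCE1, which recycles ribosomes after termination, was downregulated 1.35-fold in the first period (log2 fold change −0.44, limma adjusted *P* = 0.00705) and upregulated 1.73-fold in the second (0.79, 3.4e-05), in 9 of 9 cattle each time. ABCF2 had values of −0.45 (limma adjusted *P* = 0.00539) and 0.61 (0.000358). ABCF3 changed most of the 4. Its levels were −0.89, −0.67 and −0.40 on the log2 scale at the early stage, −2.61, −1.53 and −1.02 at the middle stage, where 3 arrays were well above background, and −0.67, −0.52 and −0.19 at the late stage. The middle stage lay wholly below the others. ABCF3 was downregulated 2.05-fold in the first period (−1.03 ± 0.18, SE, n = 9; limma adjusted *P* = 8.12e-05) and upregulated 2.31-fold in the second (1.21 ± 0.18, adjusted *P* = 1.06e-05). Those values were −0.24 and 0.29 after normexp background correction, and within slide 2 the first-period value was −0.95. ABCF1, which takes part in translation initiation, was not a DEG in any comparison, and its mean log2 level was 6.59, 6.70 and 6.56.

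**Figure D5:**
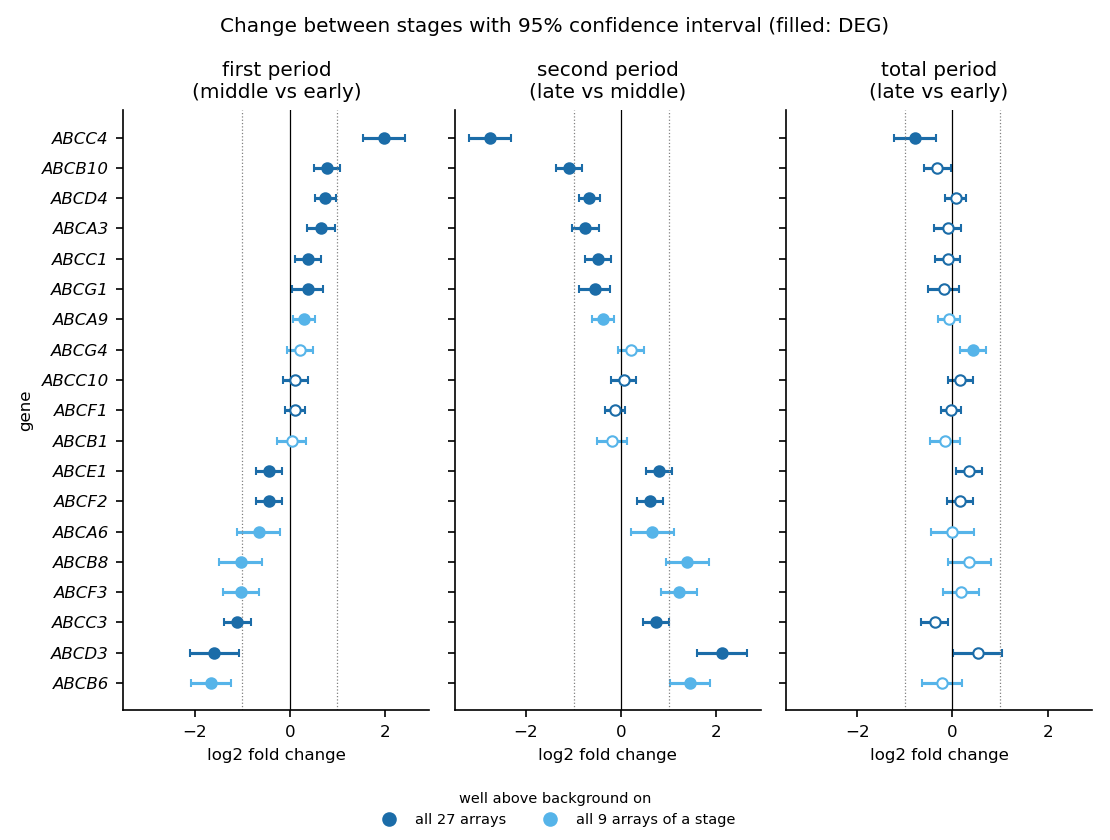
Log2 fold change (horizontal) with its 95% confidence interval for 19 of the 21 measured ABC genes in the first, second and total periods, filled where the gene was a DEG and colored by detection. ABCC4 stands at the top with 1.98, −2.76 and −0.79, ABCB6, ABCD3 and ABCC3 at the bottom fell and then rose, and most intervals of the total period include 0.

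Genes that act with these transporters were taken from lists chosen by function. The lists are described by counts, beside the shares of all probes called. These were 45.3% higher and 21.2% lower in the first period, and 26.7% and 44.8% in the second. Of 12 genes for mitochondrial heme and iron-sulfur synthesis, partners of the ABCB members, 2 were upregulated and 5 downregulated in the first period, and 5 upregulated and 2 downregulated in the second. CPOX, an enzyme of heme synthesis, fell by 1.32 on the log2 scale in the first period and rose by 1.16 in the second. GLRX5, an iron-sulfur carrier, had −1.10 and 1.24. The medians of the list were −0.22 and 0.16.

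Of 12 peroxisomal partners of the ABCD members other than ABCD4, 1 was upregulated and 6 downregulated in the first period. In the second, 7 were upregulated and 2 downregulated. The list's median was −0.35 and then 0.46. Catalase (CAT) fell by 2.31 on the log2 scale (limma adjusted *P* = 2.51e-09) and rose by 2.41 (3.54e-10). SCP2, a peroxisomal thiolase and lipid carrier, had −1.07 and 0.90. PEX7, the import receptor for a class of peroxisomal enzymes, moved against them with 1.45 and −2.04.

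Of 13 partners of ABCE1 and ABCF1 in translation, 2 were upregulated and 6 downregulated in the first period, and 10 upregulated and 1 downregulated in the second, with medians of −0.30 and 0.42. The initiation factor EIF2S2 had log2 fold changes of −1.33 and 1.61. PELO, which works with ABCE1 in freeing stalled ribosomes, had −1.01 and 0.96, and the termination factor GSPT1 −0.68 and 1.13. EIF3J had −1.12 and 0.65, and EIF2S3 had −0.70 and 1.09. EIF1 differed, being 1.25 higher over the total period on the log2 scale (limma adjusted *P* = 9.66e-05).

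Of 17 genes of xenobiotic and NRF2 control, which can regulate ABCC genes in other tissues, 8 were upregulated and 3 downregulated in the first period, and 4 upregulated and 8 downregulated in the second, with medians of 0.27 and −0.53. KEAP1, the inhibitor of NRF2, had log2 fold changes of −1.61 and 1.63, and NQO1, a target of NRF2, had −1.06 and 1.29. These signs are opposite to those of the list medians, which share the sign of the all-probe medians (0.33 and −0.28). Of the 17 probes, 7 were well above background on all 9 middle-stage arrays and 3 on none of them. Of 13 nuclear receptors and lipid acceptors of sterol efflux, 7 were upregulated and 1 downregulated in the first period, and 2 upregulated and 7 downregulated in the second, with medians of 0.47 and −0.39. Well above background on all 9 arrays were 12, 6 and 12 of these 13 probes (early, middle, late). APOA1, the acceptor of ABCA1, had 1.33 and −1.05, and its second-period call was lost when animal 3, 5, 6 or 7 was left out (−0.70 to −1.10, limma adjusted *P* up to 0.12). Of the 2 channel partners of ABCC8 and ABCC9, KCNJ8 had 0.80 and −1.03. Of the 3 genes of the superfamily with other names, the peptide transporters TAP1 and TAP2 were upregulated in the first period and downregulated in the second, and the chloride channel CFTR was not called in either.

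Markers of other cell types are given by stage, and their part in these results was not tested. The log2 of the summed level of 15 epithelial marker probes ranged from 12.06 to 12.51 over the early-stage biopsies, 10.47 to 12.43 over the middle-stage and 12.32 to 12.57 over the late-stage biopsies. For 7 smooth muscle probes the ranges were 6.84 to 8.63, 6.69 to 9.76 and 6.99 to 7.75. For 7 fibroblast probes they were 6.44 to 9.53, 6.47 to 9.96 and 6.12 to 8.63, and for 3 red blood cell probes 5.24 to 6.05, 6.67 to 7.61 and 5.45 to 6.46. The red blood cell range of the middle stage lay above those of the other stages. For 6 endothelial probes they were 5.10 to 6.08, 5.48 to 6.59 and 5.55 to 6.22, and for 8 leukocyte probes 5.18 to 6.23, 5.10 to 5.90 and 5.41 to 6.28. Not well above background on any array of the stage were 1, 2 and 0 of the red blood cell probes and 0, 1 and 1 of the leukocyte probes (early, middle, late), and at each stage 1 of the endothelial and 1 of the epithelial probes.

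The counts differed with the slide in the model, and the cause was not tested. Under a random slide block 17 members were upregulated and 7 downregulated in the first period, 7 and 18 in the second, and 0 and 0 over the total period. Of all 15008 probes, that block called 4925 higher and 1905 lower in the first period, 2397 and 5111 in the second, and 82 and 166 over the total period. A fixed slide block left the early-stage array of animal 9 as the 1 link between the stages, and had no animal effect and no late-stage arrays. Under it 4 members were upregulated and 0 downregulated, as were 1547 and 655 of all probes. Its median SE over all probes was 0.459 against 0.188 in the main fit. Late-stage arrays shared no slide with the other stages, so stage and slide cannot be told apart in the second and total periods.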

How the data were processed

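RNA of 27 RE biopsies was measured on 1-color arrays. The authors scanned them with Agilent Feature Extraction (9.5 in the submitters' notes, 11.0.1.1 in the output), which gave the deposited processed intensity on a linear scale, after local background subtraction, and for each spot a deposited score of 0 or 1 for being well above background or an outlier. The authors also deposited log2 values, used as an alternative; set against the scanner values, these were scaled near each array's 75th percentile (offset at most 0.081, SD over probes at most 0.029), not centered by gene, and had column medians of −3.09 to −2.61.

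Of 15646 spots, 15110 were not controls. Log2 processed signals were centered on the median of their array, after the study's methods. Feature outliers were set missing, spots of a probe were averaged, and the 15008 probes were fitted in R 4.3.3 with limma 3.58.1 (statmod 1.5.0), with 1 mean per stage, 1 effect per animal and Benjamini-Hochberg adjustment. Animals pair the arrays, since all stages come from 1 set of 9 cattle, and within an animal the residuals from stage means correlated by 0.16 on average (−0.15 to 0.46), against −0.02 between animals. The procedure was tested on simulated data. The number of arrays limits precision.

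The members and lists were chosen with earlier results of these data known. Full statistics are given for ABCC4 and for measured members with a 2-fold DEG call, shorter values for the other measured members. The values of 2 members and 1 partner gene are not reported here, though counts and medians include them. Partner genes are named where they were DEGs with a 2-fold change and so measured; the values given for them are those past 2-fold and, beside them, the other period. The test among cattle, and leaving out the 3 middle-stage arrays with the lowest share of probes well above background, were chosen after seeing the data. Alternatives were other scalings (75th percentile, median of probes measured on all arrays, quantile), normexp background correction (offset 50), outliers kept, the deposited log2 values, a filter on dim probes, no animal block, the slide as a block, 2 stages in the fit, the methods' t-test (paired, with the same adjustment), and each animal left out.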

Additional observations from a re-analysis of the deposited data

Results flagged for a closer look

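In 57 sets of 9 levels (19 measured members at 3 stages), 1 held an animal far from the other 8 by Dixon's criterion, or 1.75%, where chance gives about 1 set in 20. ABCB6 at the middle stage was −1.13 in animal 4 on the log2 scale, the next lowest animal being at 0.43, and the probe was not well above background on that array. That array had the lowest median processed signal of all, 8.22, and without the 3 dimmest middle-stage arrays the first-period log2 fold change of ABCB6 was −1.50 against −1.66.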

How the results depend on the processing

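Over 40 log2 fold changes of measured members, 0 changed sign under any alternative. Outside slide 2, most kept their call in most alternatives, and the rest lost or gained one. The fixed slide block differed, with 15 first-period calls lost. The counts of called members depended on scaling and background. In the first period 22 members were higher, 8 lower and 16 at least 2-fold. The higher count became 9 with quantile normalization, 9 with normexp and 8 with dim probes filtered out, and the 2-fold count became 7, 2 and 6. Over all probes the higher count of 6796 became 3677, 3499 and, among the 10165 probes left by the filter, 3195. Under a fixed slide block the higher, lower and 2-fold counts of members were 4, 0 and 3. Within slide 2, 1 early biopsy was set against 7 of other cattle, and the median SE over all probes was 0.544 against 0.188. No counts are given for that setting, since 1 early-stage array has no spread of its own. Without the 3 dimmest middle-stage arrays, chosen after the data had been seen, the 2-fold count was 9. In the second period the lower count of 23 became 12 with quantile normalization, 10 with normexp and 8 with dim probes filtered out, and the 2-fold count of 19 became 7, 3 and 6. Over all probes the lower count of 6721 became 3860, 3804 and, among the 10165 left by the filter, 2900. Over the total period the higher count of 1 and lower count of 2 became 0 and 5 with 75th percentile scaling, with the median of probes measured on all arrays, and with the deposited log2 values. They were 0 and 0 under a random slide block, 3 and 4 with 2 stages in the fit, and 4 and 5 without the 3 dimmest middle-stage arrays. The higher count was 2 with dim probes filtered out and 3 by the methods' t-test. The count of members that differed among cattle was 2, and became 1 with normexp and 4 without the 3 dimmest arrays. The causes were not tested, except that the filter on dim probes and the within-slide comparison keep fewer probes or arrays by construction.

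With single animals left out, the first-period counts ranged from 19 to 22 higher, 8 to 8 lower and 13 to 17 at least 2-fold, the second-period counts from 8 to 8, 22 to 24 and 17 to 20, the total-period counts from 0 to 2 higher, 1 to 2 lower and 0 to 0 at least 2-fold, and the count among cattle from 1 to 3.

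Without the animal block (no pairing), 20 members were higher, 7 lower and 16 at least 2-fold in the first period, 7, 22 and 19 in the second, and 1, 0 and 0 over the total period. Beside the calls of ABCC4 over the total period and of ABCA6 in both periods, given with these genes, the unpaired fit lost the first-period calls of ABCC1 (0.39, limma adjusted *P* = 0.12) and ABCG1 (0.38, 0.0565).

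Partner genes were recomputed in 549 values, of which 0 changed sign and 28 lost the call. For the 11 members not well above background on any array, and the 6 so on only some arrays, the arrays give no measured level or only part of one.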
